A study of Mus musculus with 12 samples.

Results

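The genes described here are 8 components of the renin-angiotensin system in the mouse hippocampus. They are the substrate gene Agt, the peptidase genes Ace, Enpep and Lnpep, and the receptor genes Atp6ap2, Agtr1a, Agtr2 and Mas1. The genes were chosen by name, with no threshold on a measured value and with earlier results of these data known. All 8 were found by their Ensembl identifiers among the 55421 genes listed in the counts, and all 8 passed the filter of more than 20 counts over the 12 libraries that left 22592 genes for testing.

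The study asked whether a short treatment with Nutlin-3, a small molecule that blocks the binding of MDM2 to p53, left lasting changes in the hippocampus of Fmr1 KO mice, a model of fragile X syndrome. Wild type (WT) and Fmr1 KO mice of C57BL/6 background were injected intraperitoneally 5 times with vehicle (Veh) or with 10 mg/kg Nutlin-3 (Nut3), starting at 2 months of age. The hippocampus was dissected at 6 months, and poly(A) RNA of 12 mice was sequenced. The 4 groups hold 3 mice each and are called WT-Veh and WT-Nut3 in the wild type, and KO-Veh and KO-Nut3 in the mutant. The drug was dissolved in dimethyl sulfoxide, the deletion was not restricted to a cell type, and whether these mice carried the Nestin-GFP transgene used elsewhere in the study is not given in the sources used here. Between 17150820 and 20040482 reads per library were counted on genes. Libraries are named by group and by the number in the labels, RH1 to RH16.

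The targeted gene was measured first. Levels are given as CPM, the count of a gene scaled to 1000000 reads on genes. Fmr1 stood at 77.5 CPM in WT-Veh, 75.8 CPM in WT-Nut3, 34.2 CPM in KO-Veh and 31.6 CPM in KO-Nut3 (means of 3 libraries). The 6 KO libraries all lay below the 6 WT libraries, and the log2 fold change of KO-Veh against WT-Veh was -1.18 (SE 0.07, adjusted p = 1.76e-06, edgeR quasi-likelihood test with Benjamini-Hochberg adjustment). Each of the 12 libraries thus had the Fmr1 level of its labelled genotype, and residual Fmr1 reads remained in the KO.

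In the classical cascade, renin cuts angiotensinogen, the product of Agt, into angiotensin I, which angiotensin-converting enzyme (the product of Ace) turns into angiotensin II. Aminopeptidase A (Enpep) trims angiotensin II to angiotensin III, the AT1 and AT2 receptors (Agtr1a, Agtr2) bind these peptides, and the Mas receptor (Mas1) binds angiotensin-(1-7). In the brain, angiotensinogen is made mainly by astrocytes, Ace is strong in the choroid plexus, the tissue that secretes cerebrospinal fluid, and the insulin-regulated aminopeptidase (Lnpep) binds angiotensin IV.

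Markers of the tissue and of its neighbours were read before the members. All 12 markers of CA pyramidal neurons and all 12 of dentate granule cells were at 1 CPM or more in every library. The 16 choroid plexus markers did not stand at one level. Their summed level was 35.1 to 60.6 CPM in 8 libraries, while KO-Nut3 RH6 had 3674 CPM, RH8 of the same group 398 CPM, RH13 5242 CPM and WT-Nut3 RH9 4907 CPM. The most abundant marker was Ttr, the transthyretin of the choroid plexus epithelium, and 4 of the 16 markers were at 1 CPM or more in every library. Kcnj13 and Steap1 were at 0 counts in 2 libraries each.

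KO-Nut3 RH6 also stood apart in another way. The 12 thalamus markers summed to 375 CPM in this library and to between 143 and 174 CPM in the other 11 libraries. Their most abundant gene was Rora, and Gbx2 was at 0 in 9 libraries. The CA pyramidal markers, led by Nptx1, summed to 1187 CPM in the same library and to between 1599 and 1910 CPM in the others. In bulk tissue, fewer cells of a type and less RNA per cell cannot be told apart.

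The members covered a wide range of levels. Levels are compared between genes as CPM per kb of annotated exon, as the mean and SD over 12 libraries. Atp6ap2, the (pro)renin receptor and an accessory subunit of the vacuolar proton pump, was highest at 73.0 ± 3.86 CPM per kb. Mas1 followed at 15.1 ± 2.29, Lnpep at 13.2 ± 0.46 and Agt at 12.7 ± 6.85 CPM per kb. Ace had a mean of 6.01 ± 7.10 and a median of 2.03 CPM per kb. Enpep at 0.63 ± 0.14, Agtr2 at 0.26 ± 0.12 and Agtr1a at 0.14 ± 0.08 CPM per kb were the lowest. Of the 7 neighbouring pairs in this order, only Atp6ap2 with Mas1 and Ace with Enpep had ranges that did not overlap over the 12 libraries. Mas1, Lnpep, Agt and Ace formed a run in which each range overlapped the next. The overlap of Mas1 with Lnpep came from KO-Nut3 RH6 alone, where Mas1 was 8.76 CPM per kb. In the other 11 libraries it was 14.1 to 17.6 CPM per kb, above the highest value of Lnpep, 13.7 CPM per kb. This order rests on the annotated exon lengths, 14.144 kb for Lnpep and 2.62 kb for Mas1. Without scaling by length, the means over 12 libraries were 187 CPM for Lnpep and 39.7 CPM for Mas1.

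**Figure D1:**
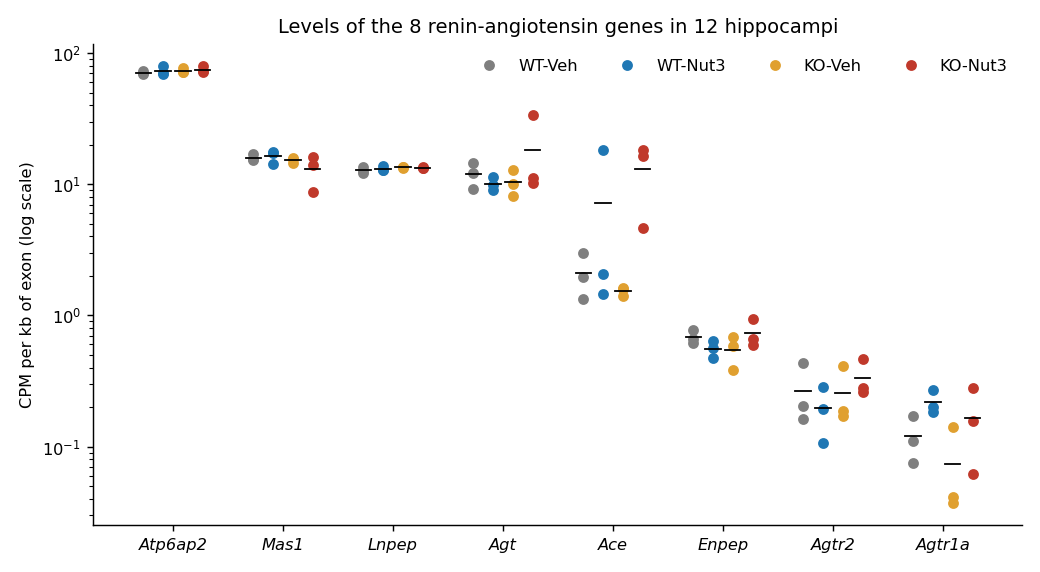
Level of each of the 8 genes in each library, in CPM per kb of exon on a log axis, with points coloured by group and bars at the group means of 3 libraries. Atp6ap2 lies above all other members in all 12 libraries. The 4 highest points of Ace are 3 of KO-Nut3 and 1 of WT-Nut3, with KO-Nut3 RH8 much nearer to the other 8 than to the top 3.

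The members also differed in how steady they were. The coefficient of variation of CPM over the 12 libraries was 3.51% for Lnpep, and only 2.21% of all tested genes had a lower one. Atp6ap2 had 5.29%, Mas1 15.2% and Enpep 22.1%, beside a median of 16.7% over all tested genes. Agtr2 with 44.5%, Agt with 54.0% and Agtr1a with 56.9% were higher. The values of Agt and Mas1 rested on KO-Nut3 RH6, and without it they were 17.3% and 7.42%. Ace had the highest value, 118%, above that of 98.4% of all tested genes.

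Ace (ENSMUSG00000020681) lies at chr11:105967945-105989964 on the plus strand of mm10. RefSeq (GRCm38.p6, the same assembly) gives it a pair of starts, one at the 5′ end and one inside the gene. The inner start lies in the region from which the short germinal form of the enzyme is known to be transcribed, and its window fell in an intron of the full-length transcript. The 250 bases before each of these starts and before the starts of Agt and Atp6ap2 are shown because Ace and Agt were the least even of the well-expressed members and Atp6ap2 the highest. CG dinucleotides are in capitals, and each sequence reads 5′ to 3′ on the strand of its gene.

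Ace, 5′ start, chr11:105967698-105967947, plus strand: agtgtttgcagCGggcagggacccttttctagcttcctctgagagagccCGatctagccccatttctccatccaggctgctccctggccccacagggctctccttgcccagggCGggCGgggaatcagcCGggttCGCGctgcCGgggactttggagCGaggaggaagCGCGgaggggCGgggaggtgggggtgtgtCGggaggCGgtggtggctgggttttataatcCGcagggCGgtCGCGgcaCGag
Ace, inner start, chr11:105974939-105975188, plus strand: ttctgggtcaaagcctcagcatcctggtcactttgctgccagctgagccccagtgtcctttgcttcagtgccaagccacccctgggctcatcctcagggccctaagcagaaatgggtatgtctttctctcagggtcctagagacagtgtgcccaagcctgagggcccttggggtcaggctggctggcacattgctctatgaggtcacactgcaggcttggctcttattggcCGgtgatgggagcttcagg
Agt, chr8:124569707-124569956, minus strand: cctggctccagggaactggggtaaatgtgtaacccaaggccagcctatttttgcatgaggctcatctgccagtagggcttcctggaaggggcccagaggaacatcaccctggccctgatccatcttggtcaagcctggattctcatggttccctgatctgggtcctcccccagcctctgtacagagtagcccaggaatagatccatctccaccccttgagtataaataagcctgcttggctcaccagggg
Atp6ap2, chrX:12587509-12587758, plus strand: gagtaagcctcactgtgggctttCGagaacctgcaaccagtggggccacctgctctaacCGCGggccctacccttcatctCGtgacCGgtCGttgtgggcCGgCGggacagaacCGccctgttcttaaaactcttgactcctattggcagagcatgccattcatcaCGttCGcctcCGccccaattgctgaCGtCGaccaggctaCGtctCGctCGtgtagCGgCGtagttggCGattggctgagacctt

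The windows differed in CG content. The 5′ window of Ace held 19 CG dinucleotides and that of Atp6ap2 held 20, while the inner window of Ace held 1 and that of Agt held 0. The median over all 32851 RefSeq windows of the same length was 6. RefSeq windows were found for 7 of the 8 members, all but Agtr1a. The letters TATAAA, searched on both strands, occurred in the 5′ window of Ace and in those of Agt and Enpep, and in 12.4% of all windows. The p53 half-site, searched by its consensus, which reads alike on both strands, occurred in the window of Lnpep alone among the members and in 7.13% of all windows. Such matches are descriptions of the letters in these windows and not of binding.

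Ace was the one member that passed the test in any of the 8 comparisons. Its level was 8.62, 8.34 and 7.46 CPM in KO-Veh RH7, RH10 and RH16. In KO-Nut3 it was 87.5 CPM in RH6, 24.4 CPM in RH8 and 96.4 CPM in RH13. The groups did not overlap, and the lowest KO-Nut3 library lay well below the other two. By log2 fold change, KO-Nut3 was above KO-Veh by 3.09 (SE 0.43, 95% interval 2.12 to 4.05, adjusted p = 0.028, edgeR quasi-likelihood test), an 8.49-fold higher level. Among the 8 members 1 rose and 0 fell in this comparison, while 0.199% of all tested genes were called. Groups with every KO-Nut3 library above every KO-Veh library were found for 7.85% of all tested genes.

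The WT groups were measured in the same way. Ace stood at 7.05, 15.8 and 10.5 CPM in WT-Veh RH2, RH5 and RH15. In WT-Nut3 it was 11.01 CPM in RH1, 96.3 CPM in RH9 and 7.74 CPM in RH14. A single library was thus as high as the highest of KO-Nut3, and the other WT-Nut3 libraries lay within the range of WT-Veh. The fit for WT-Nut3 against WT-Veh gave 1.79 on the log2 scale (SE 0.76, adjusted p = 0.998), and without WT-Nut3 RH9 it was -0.24. With all genes of at least 1 count tested it was called (adjusted p = 2.42e-58), among 249 genes in all, and no other alternative called it. The difference between the Nutlin-3 effects in KO and WT had a log2 value of 1.30 (95% interval -0.99 to 3.59, adjusted p = 0.994). It ran from 0.81 without WT-Nut3 RH14 to 3.34 without WT-Nut3 RH9 (adjusted p = 0.174). Over its alternatives the adjusted p ran from 4.37e-15, with all genes of at least 1 count tested, to 1, and the former was the one call among them, in a fit that called 291 genes in all.

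**Figure D2:**
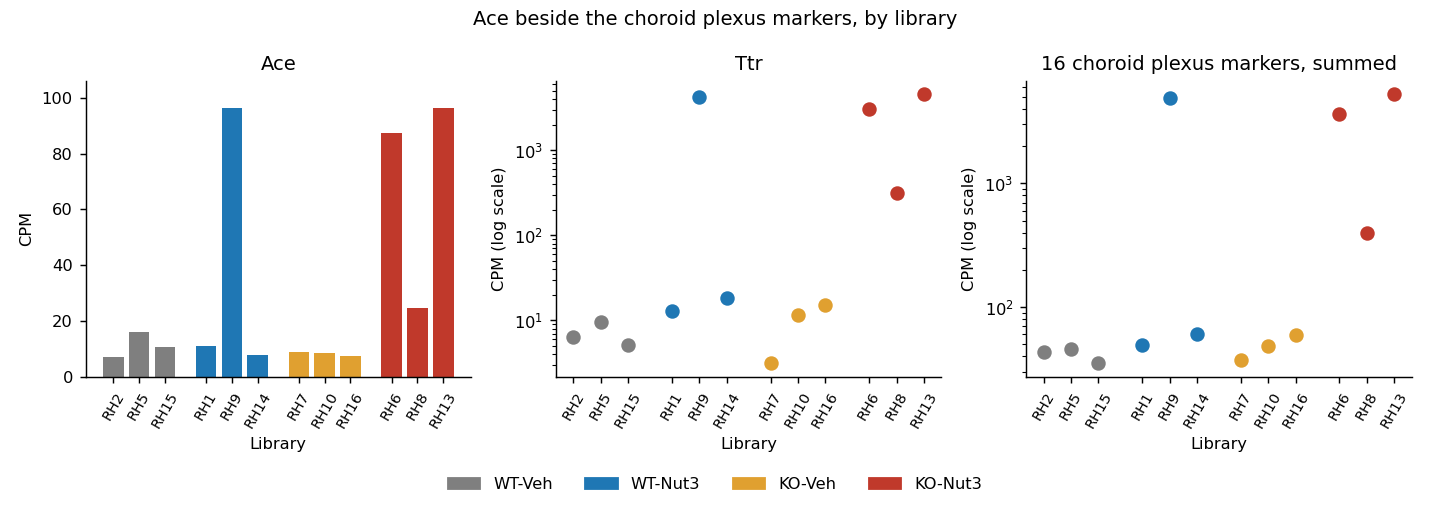
CPM of Ace (bars, linear axis from 0), of Ttr and of the summed 16 choroid plexus markers (points, log axes) in each of the 12 libraries, coloured by group. The 4 libraries with the highest Ace, namely KO-Nut3 RH6, RH8 and RH13 and WT-Nut3 RH9, are also the 4 highest in both other panels.

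The high libraries of Ace were the high libraries of the choroid plexus markers. KO-Nut3 RH6, RH8 and RH13 had 3091, 314 and 4519.7 CPM of Ttr, WT-Nut3 RH9 had 4215 CPM, and the other 8 libraries had between 3.15 and 18.2 CPM. Folr1, the folate receptor of the same epithelium, averaged 21.7 CPM over KO-Nut3 and 0.62 CPM over KO-Veh. In KO-Nut3 against KO-Veh, 5 of the 16 choroid plexus markers rose (Ttr, Folr1, Slc4a5, Kcne2 and Tmem72) and 0 fell, while DESeq2 called 15 and limma-voom 0. By edgeR the count was 10 without KO-Nut3 RH6, 16 without RH8, 2 without RH13 and 0 without any one of the KO-Veh libraries. The calls over all 22592 tested genes moved too, from 45 by edgeR to 244 by DESeq2 and 19 by limma-voom, and by edgeR to 65, 266 and 41 without RH6, RH8 and RH13 and to 6 or 7 without 1 KO-Veh library. The median log2 fold change of the list was 4.91 beside 0.00 for all tested genes. In WT-Nut3 against WT-Veh the median was 4.62, and 0 of 16 markers passed by edgeR, DESeq2 and limma-voom, with 16 at an unadjusted p under 0.05 by edgeR, as for 3.17% of all tested genes. Without WT-Nut3 RH9 the median was 0.70 and 3 markers had an unadjusted p under 0.05. The part of choroid plexus RNA in the level of Ace was not tested.

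Ace is also made by endothelial cells, and markers of vessels and meninges were read beside it. In KO-Nut3 against KO-Veh, 0 of 12 endothelial markers passed by edgeR, DESeq2 and limma-voom, with 7 at an unadjusted p under 0.05 by edgeR, as for 7.6% of all tested genes, and their median log2 fold change was 0.24. The 7 became 3 without KO-Nut3 RH8 and 4 without KO-Veh RH10. Their sums ran from 324 CPM in KO-Veh RH10 to 418 CPM in KO-Nut3 RH8, led by Slc2a1. For mural cells, led by Rgs5, 0 of 12 passed by edgeR, 2 had an unadjusted p under 0.05, DESeq2 called 1 and limma-voom 0, and the median was 0.36 (0.20 without KO-Nut3 RH8). The 2 became 7 without KO-Veh RH7, 6 without KO-Nut3 RH13 and 5 without KO-Nut3 RH6. For fibroblasts, led by Pdgfra, 0 of 12 passed by edgeR, 9 had an unadjusted p under 0.05, DESeq2 called 6 and limma-voom 0, and the median was 0.94. Without KO-Nut3 RH13 edgeR called 4 fibroblast markers. KO-Nut3 RH8 and WT-Veh RH5 had the highest fibroblast sums, 303 and 256 CPM, and the other 10 libraries lay between 121 and 179 CPM. WT-Veh RH5 also had the highest Ace among the 6 vehicle libraries. The part of these cells was not tested.

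The call for Ace depended on single libraries and on the tool. Without KO-Nut3 RH6 the log2 fold change was 2.89 (adjusted p = 0.0114), and without RH8 it was 3.49 (adjusted p = 4.06e-07). The call was lost without KO-Nut3 RH13 (2.78, adjusted p = 0.0532), without KO-Veh RH7 (3.13, adjusted p = 0.271), without RH10 (3.10, adjusted p = 0.374) and without RH16 (3.03, adjusted p = 0.215). Leaving out both RH6 and RH13, the KO-Nut3 libraries highest in Ace, was a choice made after the data were seen that fixed a lower value. KO-Nut3 RH8 alone against KO-Veh then gave 1.59, with the lone library assumed to vary like the controls. DESeq2 gave 3.08 (adjusted p = 2.30e-05), and limma-voom gave 2.86 (adjusted p = 0.349). With a block of label numbers (up to RH8 against from RH9) as a term it was 3.18 (adjusted p = 0.0519), and with all 12 libraries in the fit 3.09 (adjusted p = 0.298). The sample labels do not name this block. Over all alternatives the adjusted p ran from 2.06e-13, with all genes of at least 1 count tested, to the 0.374 without RH10. Ace shares 295 exon bases with the antisense gene Gm11651, which had 4 counts in all, and the counts do not separate the strands.

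Agt (ENSMUSG00000031980, chr8:124556534-124569706, minus strand) encodes angiotensinogen, the only known precursor of the angiotensins. It was 22.9, 27.3 and 17.3 CPM in WT-Veh RH2, RH5 and RH15, and 21.7, 18.5 and 17.1 CPM in WT-Nut3 RH1, RH9 and RH14. It was 24.3, 18.9 and 15.3 CPM in KO-Veh RH7, RH10 and RH16. In KO-Nut3 it was 63.7 CPM in RH6, 21.1 CPM in RH8 and 19.4 CPM in RH13. One library of 12 stood apart, and the other 11 lay between 15.3 and 27.3 CPM. Against KO-Veh, KO-Nut3 had a log2 fold change of 0.83 (SE 0.40, 95% interval -0.07 to 1.73, adjusted p = 0.689), and without KO-Nut3 RH6 it was 0.053 (adjusted p = 0.996). Of its alternatives, 1 called Agt, with all genes of at least 1 count tested (adjusted p = 0.0276). In KO-Nut3 RH8 and RH13 and WT-Nut3 RH9, which also had high choroid plexus markers, Agt was 21.1, 19.4 and 18.5 CPM. The part of choroid plexus RNA in Agt was not tested.

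Mas1 (ENSMUSG00000068037, chr17:12841079-12868143, minus strand) encodes the receptor of angiotensin-(1-7) and is known as a gene of hippocampal neurons. It was 44.2, 40.6 and 40.4 CPM in WT-Veh RH2, RH5 and RH15, and 37.4, 45.4 and 46.0 CPM in WT-Nut3 RH1, RH9 and RH14. It was 40.5, 41.3 and 38.2 CPM in KO-Veh RH7, RH10 and RH16. In KO-Nut3 it was 23.0 CPM in RH6, 36.9 CPM in RH8 and 42.1 CPM in RH13. The library with the highest Agt thus had the lowest Mas1, and the other 11 lay between 36.9 and 46.0 CPM. For KO-Nut3 against KO-Veh the log2 fold change was -0.24 (SE 0.18, 95% interval -0.63 to 0.16, adjusted p = 0.786), and without KO-Nut3 RH6 it was -0.020 (adjusted p = 0.998). Single libraries left out moved this log2 fold change between -0.42 and -0.020. Mas1 overlaps the antisense gene Airn, which had 335 counts in all and with which it shares no annotated exon base. The counts do not separate the strands, so Airn reads from outside its annotated exons cannot be told apart from Mas1 reads.

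KO-Nut3 RH6 was the library with high thalamus and low CA pyramidal markers. The glutamate transporter gene Slc17a6, which marks thalamic relay neurons, was 113 CPM there and 8.42 to 22.2 CPM elsewhere, and Tcf7l2, a transcription factor of the thalamus, was 32.7 CPM there and 4.75 to 7.33 CPM elsewhere. Both genes were named after their values were seen. Of the 12 thalamus markers, 7 had their highest level in this library and 5 did not, namely Gbx2, Plekhg1, Prkcd, Ramp3 and Synpo2. Astrocyte markers, led by Slc1a2, summed to 5058 CPM in KO-Nut3 RH6, within the range of 4839 to 6023 CPM over all libraries. In KO-Nut3 against KO-Veh, 0 of 10 astrocyte markers, 0 of 11 tested thalamus markers, 0 of 12 CA pyramidal markers and 0 of 12 dentate granule markers, led by Dock10, passed by edgeR, DESeq2 or limma-voom. By edgeR an unadjusted p under 0.05 was found for 0, 2, 0 and 0 of them, beside 7.6% of all tested genes. It was found for 1, 5, 4 and 1 without KO-Nut3 RH13 and for 1, 0, 1 and 0 without RH6. Without KO-Nut3 RH8 the counts were 1, 4, 2 and 1. They were 1, 0, 0 and 0 without KO-Veh RH7, all 0 without RH10, and 0, 1, 0 and 1 without RH16. Their median log2 fold changes were 0.00, 0.38, -0.17 and -0.12, and -0.033, 0.058, -0.054 and 0.0037 without KO-Nut3 RH6. Without KO-Nut3 RH13 they were 0.029, 0.55, -0.25 and -0.23. The astrocyte and dentate granule medians were 0.039 and -0.024 without KO-Veh RH16. The part of tissue from outside the hippocampus in Agt and Mas1 was not tested.

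**Figure D3:**
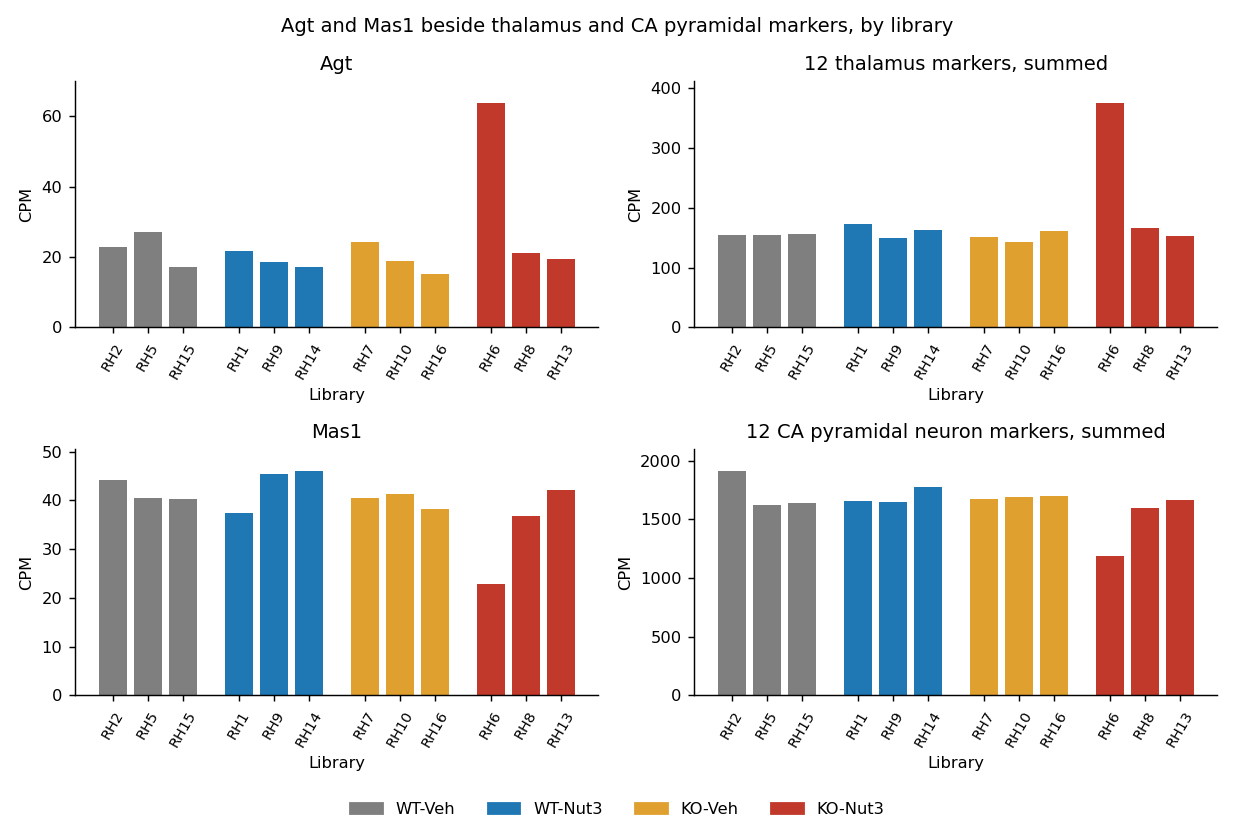
CPM of Agt and Mas1 (left) beside the summed CPM of 12 thalamus and 12 CA pyramidal neuron markers (right) in each of the 12 libraries, with bars from 0 coloured by group. KO-Nut3 RH6 has the highest bar of Agt and of the thalamus markers and the lowest of Mas1 and of the CA pyramidal markers.

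Enpep and Lnpep, the other 2 peptidases, did not pass the test in any comparison. Enpep (ENSMUSG00000028024, chr3:129269175-129332720, minus strand) encodes aminopeptidase A, a membrane enzyme of pericytes and other vascular cells. Its level was 3.11, 3.62 and 2.88 CPM in WT-Veh, 2.99, 2.24 and 2.64 CPM in WT-Nut3, 3.20, 1.80 and 2.73 CPM in KO-Veh and 3.11, 4.41 and 2.80 CPM in KO-Nut3, in the library order used above. The groups overlapped, with the highest value in KO-Nut3 RH8 and the lowest in KO-Veh RH10. KO-Nut3 RH8 had the highest mural cell sum (345 CPM beside 217 to 327 CPM elsewhere) and also the highest endothelial and fibroblast sums (418 and 303 CPM). KO-Veh RH10 had the lowest endothelial sum (324 CPM), while its mural sum of 226 CPM was above the 217 CPM of KO-Veh RH16. The part of these cells in the level of Enpep was not tested. For KO-Nut3 against KO-Veh the log2 fold change was 0.41 (95% interval -0.20 to 1.02, adjusted p = 0.767), and it was 0.19 without KO-Nut3 RH8 and 0.21 without KO-Veh RH10.

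Lnpep (ENSMUSG00000023845, chr17:17521410-17625050, minus strand) encodes the insulin-regulated aminopeptidase, which travels with glucose transporter vesicles. Its mean level was 181 ± 9.496 CPM in WT-Veh, 186 ± 6.70 CPM in WT-Nut3, 191 ± 1.29 CPM in KO-Veh and 189 ± 1.96 CPM in KO-Nut3 (SD, n = 3). All 12 libraries lay between 171.9 and 193 CPM. The 95% interval of the log2 fold change was -0.14 to 0.10 for KO-Nut3 against KO-Veh and -0.03 to 0.20 for KO-Veh against WT-Veh. Changes of Lnpep beyond these bounds are outside the intervals of these comparisons.

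Among the receptors, Atp6ap2 (ENSMUSG00000031007, chrX:12587801-12617049, plus strand) varied least. Its mean level was 185 ± 5.63 CPM in WT-Veh, 191 ± 15.7 CPM in WT-Nut3, 193 ± 8.48 CPM in KO-Veh and 195 ± 11.6 CPM in KO-Nut3 (SD, n = 3). Its highest value was 209 CPM in WT-Nut3 RH9 and its lowest 180.4 CPM in WT-Nut3 RH1. For KO-Nut3 against KO-Veh the 95% interval of the log2 fold change was -0.13 to 0.16.

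The angiotensin receptors were near the lower limit of the counts. Agtr1a (ENSMUSG00000049115, chr13:30336441-30382867, plus strand), the main rodent AT1 receptor gene, had 8, 4 and 6 counts in WT-Veh and 10, 15 and 10 counts in WT-Nut3. It had 2, 7 and 2 counts in KO-Veh and 14, 3 and 8 counts in KO-Nut3. As CPM, the 3 WT-Nut3 libraries lay above the 3 WT-Veh libraries, while KO-Nut3 and KO-Veh overlapped. The log2 fold change of WT-Nut3 against WT-Veh was 0.87 (95% interval -0.16 to 1.90, adjusted p = 0.998), and 3.6% of all tested genes had every WT-Nut3 library above every WT-Veh library. That of KO-Nut3 against KO-Veh was 1.17 (95% interval -0.45 to 2.79, adjusted p = 0.752), with 0.58 without KO-Nut3 RH6 and 2.03 without KO-Veh RH10.

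Agtr2 (ENSMUSG00000068122, chrX:21484544-21489164, plus strand), the AT2 receptor gene, had 7 to 28 counts per library. The group means were 0.89 ± 0.49 CPM in WT-Veh, 0.65 ± 0.30 CPM in WT-Nut3, 0.85 ± 0.45 CPM in KO-Veh and 1.12 ± 0.38 CPM in KO-Nut3 (SD, n = 3), and all groups overlapped. For KO-Nut3 against KO-Veh its log2 fold change was 0.39 (95% interval -0.58 to 1.36, adjusted p = 0.856), and single libraries left out moved it between 0.082 without KO-Nut3 RH6 and 0.91 without KO-Veh RH16. In KO-Nut3 against KO-Veh the intervals of both receptors include 0.

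The comparisons were then read across all members. In WT-Nut3 against WT-Veh, 0 of 8 members were called by edgeR, DESeq2 and limma-voom, Ace alone had an unadjusted p under 0.05 by edgeR, and 0% of all tested genes were called, with 3.17% at an unadjusted p under 0.05. In KO-Veh against WT-Veh, 0 of 8 were called by any of the 3 tools and 0 had an unadjusted p under 0.05, beside 0.0177% of all tested genes called and 7.2% at an unadjusted p under 0.05. In KO-Nut3 against WT-Nut3 the members' counts were also 0 and 0, beside 0.00443% of all tested genes called, which was Fmr1 itself, and 4.87% at an unadjusted p under 0.05. The members at an unadjusted p under 0.05 moved with single libraries. In this comparison they numbered 2 without KO-Nut3 RH13, and 1 without KO-Nut3 RH8, WT-Nut3 RH9 or WT-Nut3 RH14. For KO-Veh against WT-Veh there was 1 without WT-Veh RH2, WT-Veh RH15 or KO-Veh RH7. For WT-Nut3 against WT-Veh there were 0 without WT-Nut3 RH9. For KO-Nut3 against KO-Veh there was 1 of 8 by edgeR with all libraries, beside 7.6% of all tested genes. There were 3 without KO-Nut3 RH13, and 2 without KO-Nut3 RH8 or KO-Veh RH10. The median log2 fold change of the 8 members was 0.40 in KO-Nut3 against KO-Veh, -0.14 in KO-Veh against WT-Veh, 0.04 in WT-Nut3 against WT-Veh and 0.20 in KO-Nut3 against WT-Nut3, and that of all tested genes lay within 0.01 of 0 in each. These medians moved with single libraries. That of KO-Nut3 against KO-Veh ran from 0.067 without KO-Nut3 RH6 and 0.19 without KO-Veh RH10 to 0.57 without KO-Veh RH16. For KO-Veh against WT-Veh it was -0.26 without WT-Veh RH2, -0.22 without WT-Veh RH15, -0.097 without WT-Veh RH5 and -0.093 without KO-Veh RH10. For WT-Nut3 against WT-Veh it ran from -0.10 without WT-Nut3 RH9 to 0.074 without WT-Nut3 RH1. In KO-Nut3 against WT-Nut3 it was 0.065 without KO-Nut3 RH6 and 0.11 without RH8. These comparisons share libraries and are not independent of each other.

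**Figure D4:**
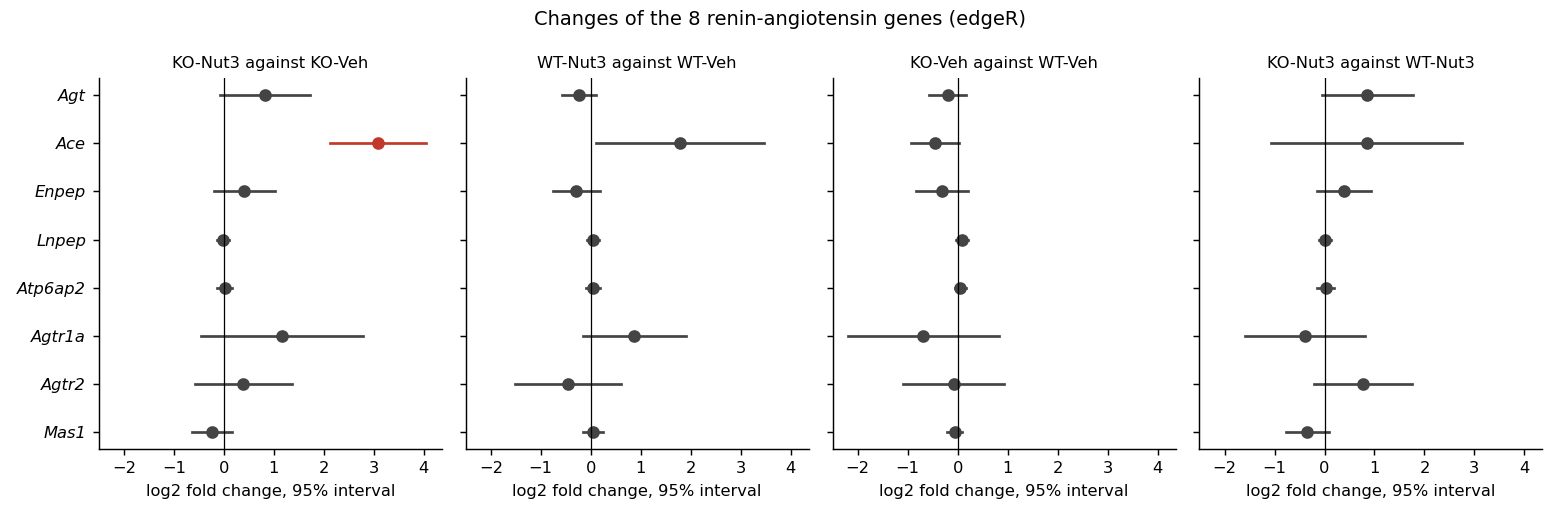
Log2 fold change (points) and 95% interval (lines) of the 8 genes by edgeR in 4 comparisons of 3 against 3 libraries. Ace in KO-Nut3 against KO-Veh, in red, is the one value with an adjusted p under 0.05, and the intervals of Lnpep and Atp6ap2 are the narrowest in each panel.

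In KO-Nut3 against WT-Veh, Ace had a log2 fold change of 2.64 (SE 0.47, adjusted p = 0.134). The groups did not overlap, as for 7.92% of all tested genes with KO-Nut3 higher. By edgeR 0 of 8 members were called and 1 had an unadjusted p under 0.05, beside 0.00443% of all tested genes called and 9.17% at an unadjusted p under 0.05, while DESeq2 called 1 (Ace, adjusted p = 0.00817), among 218 of all tested genes, and limma-voom 0. Without KO-Nut3 RH8, edgeR called Ace (3.04, adjusted p = 0.000539) among 197 genes in all. In all Nut3 against all Veh, with genotype in the fit, Ace had a log2 fold change of 2.43 (SE 0.56, adjusted p = 0.235 by edgeR and 0.0407 by DESeq2, which called 79 of all tested genes). By edgeR 0 of 8 members were called and 2, Ace and Agtr1a, had an unadjusted p under 0.05, beside 0% of all tested genes called and 7.29% at an unadjusted p under 0.05, and limma-voom called 0. Without KO-Nut3 RH6 and RH13 and WT-Nut3 RH9 together, which was tried after the data were seen, the value for Ace was 0.56 (adjusted p = 1). These libraries had the highest choroid plexus sums and also the highest Ace (87.5, 96.4 and 96.3 CPM). A lower value for Ace was thus fixed by the choice. In all KO against all WT, 0 of 8 members were called by the 3 tools and 0 had an unadjusted p under 0.05, beside 0.00443% of all tested genes called and 8.16% at an unadjusted p under 0.05. The difference between the Nutlin-3 effects in KO and WT gave 0 of 8 by the 3 tools and 0 at an unadjusted p under 0.05, beside 0% of all tested genes called and 4.17% at an unadjusted p under 0.05.

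Other genes of the system were read from a list of 21. Of these, 14 passed the filter, and 7 did not: Ren1, the renin gene, with 18 counts over all libraries, Agtr1b with 10, the mast cell and granule protease genes Cma1, Mcpt4, Cpa3 and Ctsg with 3, 8, 13 and 8, and Mrgprd with 0. With 0 of its counts in the 12 libraries, Mrgprd could still have had a level of up to 0.150 to 0.175 CPM in each, the level of 3 counts, and this limit covers counting error only. By edgeR, 0 of the 14 tested genes were called in any of the 8 comparisons, beside the shares of all tested genes given above. In KO-Nut3 against KO-Veh, 3 had an unadjusted p under 0.05 by edgeR, beside 7.6% of all tested genes. The 3 became 5 without KO-Nut3 RH8. A positive log2 fold change was found for 9 and a negative one for 5, and the median was 0.04. Leaving out single libraries moved this median from -0.027 without KO-Veh RH10 and -0.012 without KO-Nut3 RH6 to 0.10 without KO-Veh RH7 and 0.19 without KO-Nut3 RH13. DESeq2 called 1 of them in this comparison (Anpep), 0 in each of the others, and limma-voom called 0 in all 8.

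The 8 most abundant of these genes were not called in any comparison by edgeR. Nr3c2, the mineralocorticoid receptor, had means of 200.2 CPM in WT-Veh, 197 CPM in WT-Nut3, 176 CPM in KO-Veh and 160 CPM in KO-Nut3. Its highest library was WT-Veh RH2 with 241 CPM and its lowest KO-Nut3 RH6 with 133 CPM. Ctsd, the lysosomal protease cathepsin D, was 107 CPM in KO-Veh and 129 CPM in KO-Nut3. It was highest in KO-Nut3 RH13 (146 CPM), KO-Nut3 RH6 (139 CPM) and WT-Nut3 RH9 (132 CPM), the 3 libraries with the highest choroid plexus sums, and it was 103 CPM in KO-Nut3 RH8. Its log2 fold change of 0.27 became 0.41 without RH8 and 0.18 without RH13, and the part of choroid plexus RNA in it was not tested. Ctsa was 71.0 CPM in KO-Veh and 83.6 CPM in KO-Nut3. Thop1, Nln and Prep, peptidases that can make angiotensin-(1-7), had log2 fold changes of -0.14, -0.08 and -0.14 in KO-Nut3 against KO-Veh. Dpp3 and Rnpep, which degrade short angiotensins, had -0.10 and 0.05. Over single libraries left out, Rnpep turned to -0.084 without KO-Nut3 RH13 and was 0.12 without RH6, while the other 4 kept their sign, with -0.068 for Thop1 without KO-Nut3 RH6, -0.027 for Nln without KO-Nut3 RH13, -0.085 for Prep without KO-Veh RH7 and -0.062 for Dpp3 without KO-Veh RH16 as the values nearest to 0. In this comparison only Ctsa had an unadjusted p under 0.05.

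Anpep and Agtrap had the largest log2 fold changes among the 14 in KO-Nut3 against KO-Veh, and both were named after their values were seen. Anpep, aminopeptidase N, which turns angiotensin III into angiotensin IV, was 2.27, 6.78 and 3.61 CPM in WT-Veh and 2.33, 2.78 and 2.58 CPM in WT-Nut3. It was 2.37, 2.03 and 2.73 CPM in KO-Veh and 5.71, 8.25 and 3.899 CPM in KO-Nut3. KO-Nut3 lay above KO-Veh in all libraries, as for 7.85% of all tested genes. WT-Veh RH5 and KO-Nut3 RH8, the libraries with the highest fibroblast marker sums, had its highest values. Between KO-Nut3 and KO-Veh the log2 fold change was 1.32 (SE 0.28, adjusted p = 0.141 by edgeR). Agtrap, which binds the AT1 receptor inside the cell, was 17.7 CPM in KO-Nut3 RH6 and 8.78 to 13.1 CPM in the other 11 libraries, with a log2 fold change of 0.59 (SE 0.17, adjusted p = 0.31) that was 0.40 without RH6.

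**Figure D5:**
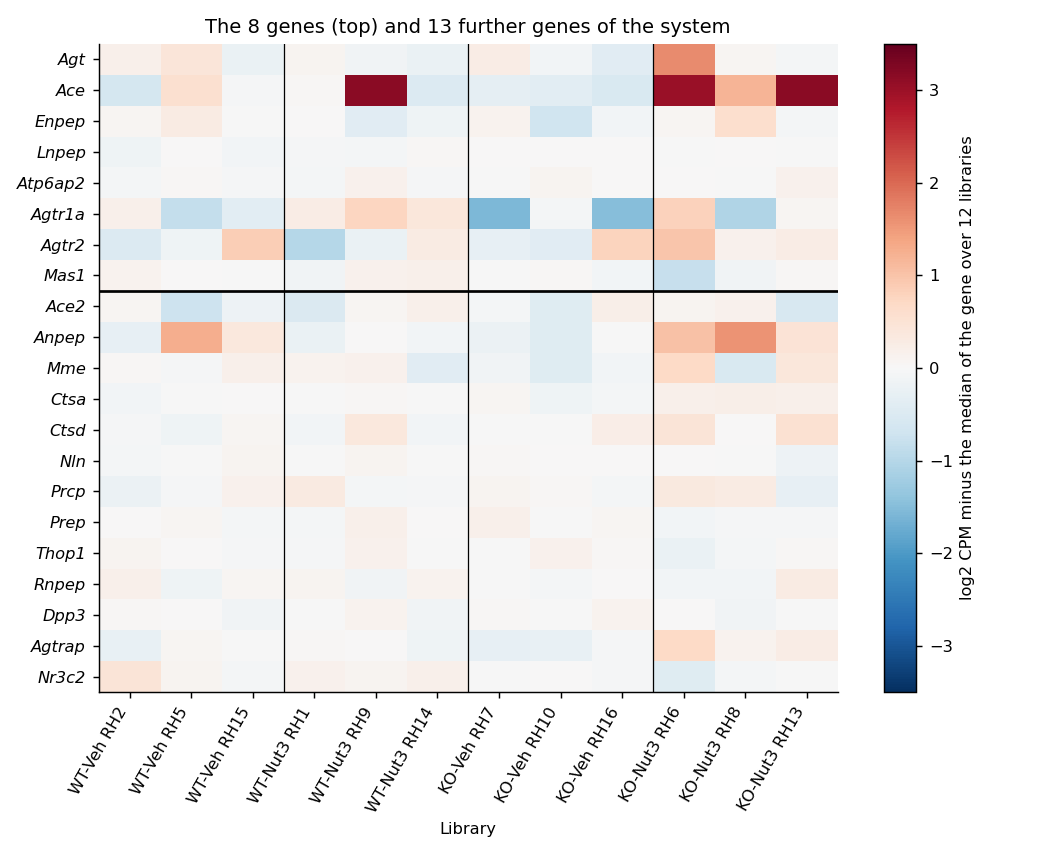
Log2 CPM of the 8 genes (above the line) and of 13 further tested genes of the system in each library, as the difference from the median of the gene over the 12 libraries. Ace is red in 4 libraries, Agt in KO-Nut3 RH6 and Anpep in WT-Veh RH5 and in KO-Nut3 RH6 and RH8, while Lnpep, Atp6ap2 and most further genes stay near 0. Klk1, with counts almost wholly in 1 library, is left out.

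The genes whose pattern over the 12 libraries was most like that of each member were found by the Pearson correlation of log2 CPM, among 15345 genes with a mean of at least 1 CPM. For Ace they were Col8a1 (r = 0.989), Gm44250 (0.986) and Hfe (0.985), and without the library farthest from the median of Ace, KO-Nut3 RH13, the values were 0.985, 0.981 and 0.981. For Agt they were Trim67 (0.973), Podxl2 (0.967) and Syt6 (0.964). Without KO-Nut3 RH6 these fell to 0.878, 0.839 and 0.804. For Mas1 they were Runx2 (0.9745), Camk1d (0.963) and Spred2 (0.960), and 0.860, 0.797 and 0.791 without the same library. Leaving out KO-Nut3 RH13 did not remove the other libraries with high Ace. KO-Nut3 RH6 and RH8 and WT-Nut3 RH9 stayed in, with 87.5, 24.4 and 96.3 CPM beside at most 15.8 CPM in the remaining 8 libraries. The correlations of Ace without these libraries were not computed.

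The remaining members with a mean of at least 1 CPM were read in the same way. Enpep was most like Vasp (0.846), Gm45495 (0.845) and Pecam1 (0.834), the last a marker of endothelial cells, with 0.737, 0.704 and 0.767 without KO-Veh RH10. Lnpep was most like Fam3a (0.917), Klhl28 (0.859) and Utp11 (0.854), with 0.827, 0.754 and 0.668 without WT-Veh RH2. Atp6ap2 was most like Tomm7 (0.916), Tmem258 (0.907) and Ppia (0.900), with 0.875, 0.907 and 0.862 without WT-Nut3 RH9. The libraries share depth, composition and dissection, and these values describe 12 libraries only.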

How the data were processed

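RNA was extracted from the frozen hippocampus of 12 mice, and poly(A) libraries were sequenced. The deposited values are raw counts of reads per gene, 1 table per library, which the authors made by mapping to mm10 with STAR according to the methods and the submitters' processing notes. The version of STAR and the gene annotation are not given in the sources used here. The values carry no normalization. The column that adds up both strands was taken, since the strands held nearly equal shares of the reads in every library. The series-wide count table was left aside.

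Genes were named by Ensembl identifier through GENCODE M21, and a gene was tested if its counts over the 12 libraries summed to more than 20, which left 22592. TMM factors and the quasi-likelihood test of edgeR 4.0.16 (R 4.3.3) were fitted across all of these genes, with the 6 libraries of the groups compared, or with all 12 libraries for the interaction and the pooled comparisons. P-values were adjusted by the Benjamini-Hochberg method over all tested genes, with a threshold of 0.05. Intervals are 95%. CPM used the TMM factors, log2 CPM a prior count of 1, and CPM per kb the union of annotated exons. Between 17150820 and 20040482 reads per library were counted on genes, so that 3 counts equal 0.150 to 0.175 CPM.

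Groups were taken from the sample labels. The replicates are separate animals. Alternatives were DESeq2 1.42.0, limma-voom (limma 3.58.1), DESeq2 size factors, filterByExpr and all genes with at least 1 count. Further alternatives were the label number (up to RH8 against from RH9) as a term, all 12 libraries in 1 fit, and each library left out. Leaving out several libraries together, and leaving out each library for the marker lists and the levels, were added after the data were seen. The scripts were tested on simulated data. The 8 members, the further genes of the system and the marker lists of choroid plexus, endothelium, mural cells, fibroblasts, astrocytes, thalamus, CA pyramidal neurons and dentate granule cells were chosen with earlier results of these data known. The text names the members, Fmr1, the 8 most abundant further genes of the system and any that were called, the 3 genes most like each member whose own mean was at least 1 CPM, the most abundant gene of each marker list and those at 0, and Ttr and Folr1. Also named are the further genes that did not pass the filter, Klk1, genes overlapping members, and the thalamus markers not highest in KO-Nut3 RH6. Anpep, Agtrap, Slc17a6 and Tcf7l2 were named after their values were seen. Promoter sequences are from RefSeq (GRCm38.p6).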

Additional observations from a re-analysis of the deposited data

Results flagged for a closer look

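For the 8 members, libraries were pooled by genotype or by treatment into groups of 6. In 4 of these 32 groups a value was far from the rest by Dixon's test at its 95% level. Chance alone does this for about 1 in 20 groups of like, normally distributed samples. Here each group pooled unlike conditions, and each library was in a genotype group and in a treatment group. The share of groups flagged can therefore not be set against that rate. Agt was 63.7 CPM in KO-Nut3 RH6, beside 24.3 CPM in the next highest of the KO libraries and 21.7 CPM in the next highest of the Nut3 libraries. Mas1 was 23.0 CPM in the same library, beside 36.9 CPM in the next lowest KO library. Ace was 96.3 CPM in WT-Nut3 RH9, beside 15.8 CPM in the next highest WT library. Groups of 3 libraries were not tested. No member had every library of one group moving one way and every library of the other group the opposite way, over the 16 pairs of effects compared.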

How the results depend on the processing

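The alternatives gave 1214 values, of which 1085 kept their direction and side of the threshold or stayed within 1.5 times of the count. In KO-Nut3 against KO-Veh the members called numbered 1, and 0 by limma-voom, with the number block as a term and with all 12 libraries in 1 fit. They numbered 2 (Ace and Agt) with all genes of at least 1 count, and 0 to 1 without single libraries. In KO-Nut3 against WT-Veh they numbered 0, and 1 by DESeq2 and with all genes of at least 1 count, and 0 to 1 without single libraries (1 without KO-Nut3 RH8). All genes of at least 1 count also gave 1 (Ace) in WT-Nut3 against WT-Veh, 2 in the interaction (Ace and Agt, with adjusted p = 9.45e-09 for Agt) and 1 in all Nut3 against all Veh, where DESeq2 gave 1. The cause was not tested.

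The genes called in all, in KO-Nut3 against KO-Veh, numbered 45 by edgeR, 244 by DESeq2, 19 by limma-voom, 544 with all genes of at least 1 count, 20 with the number block, 0 with all 12 libraries, 131 without RH6 and RH13 together and 6 to 266 without single libraries (6, 6 and 7 without KO-Veh RH7, RH10 and RH16, and 266 without KO-Nut3 RH8). In KO-Veh against WT-Veh there were 4, and 27, 272, 21 and 1 by DESeq2, with all genes of at least 1 count, with the block and with all 12 libraries, and 2 to 11 without single libraries (11 without WT-Veh RH15, 2 without KO-Veh RH7 or RH10). In WT-Nut3 against WT-Veh there were 0, and 249 with all genes of at least 1 count and 11 with the block, and 0 to 1 without single libraries (1 without WT-Nut3 RH1). In KO-Nut3 against WT-Nut3 there was 1, and 7 by DESeq2 and 38 with all genes of at least 1 count, and 0 to 7 without single libraries (2, 7 and 0 without WT-Nut3 RH1, RH9 and RH14). In KO-Nut3 against WT-Veh there was 1, and 218, 416, 3 and 2 by DESeq2, with all genes of at least 1 count, with the block and with all 12 libraries, 14 without RH6 and RH13, and 1 to 197 without single libraries (3 without WT-Veh RH5, and 5, 197 and 3 without KO-Nut3 RH6, RH8 and RH13). The interaction gave 0, and 1 by DESeq2 and 291 with all genes of at least 1 count, and 0 to 1 without single libraries (1 without WT-Nut3 RH1). All KO against all WT gave 1, and 46, 2, 239 and 10 by DESeq2, limma-voom, all genes of at least 1 count and the block, and 1 to 10 without single libraries (10 without KO-Nut3 RH6, 2 without WT-Nut3 RH9 or KO-Nut3 RH13). All Nut3 against all Veh gave 0, and 79, 539 and 3 by DESeq2, all genes of at least 1 count and the block, and 0 to 19 without single libraries (2 without WT-Veh RH5, 19 without WT-Nut3 RH14).

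These log2 fold changes turned direction, and the cause was not tested. Without RH6 and RH13 together, tried after the data were seen, Atp6ap2 was -0.042 and Agtr1a -0.22 against KO-Veh, and Agt was -0.086, Agtr1a -0.91 and Agtr2 -0.057 against WT-Veh. Without RH6, RH9 and RH13, Agt was -0.081 and Atp6ap2 -0.028 in all Nut3 against all Veh. With the number block, Atp6ap2 was 0.026 in the interaction and Agtr2 0.016 in all Nut3 against all Veh, where limma-voom gave Agtr2 0.046. Without single libraries, Atp6ap2 ran from -0.032 to 0.050 in KO-Nut3 against KO-Veh. In WT-Nut3 against WT-Veh, Ace ran from -0.24 to 2.27, Atp6ap2 from -0.021 to 0.091, Agtr2 from -0.83 to 0.082 and Mas1 from -0.011 to 0.14. Agtr2 ran from -0.59 to 0.47 in KO-Veh against WT-Veh. In KO-Nut3 against WT-Nut3, Lnpep ran from -0.0017 to 0.048, Atp6ap2 from -0.024 to 0.091 and Agtr1a from -0.97 to 0.0029. In KO-Nut3 against WT-Veh, Agt ran from -0.15 to 0.92, Enpep from -0.12 to 0.23 and Agtr1a from -0.098 to 0.87. In the interaction, Atp6ap2 ran from -0.081 to 0.042 and Agtr1a from -0.29 to 1.16. In all KO against all WT, Ace ran from -0.011 to 1.08, Agt from -0.077 to 0.47 and Enpep from -0.095 to 0.17. In all Nut3 against all Veh, Agt ran from -0.11 to 0.44, Enpep from -0.077 to 0.15, Lnpep from -0.0063 to 0.027, Atp6ap2 from -0.0014 to 0.049, Agtr2 from -0.22 to 0.27 and Mas1 from -0.16 to 0.016.

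No paired analysis was made, because the groups share no label number and the litters of these mice are not given in the sources used here. Depth limits Agtr1a and Agtr2, with 2 to 28 counts per library.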
